A study of Mus musculus with 23 samples.

Results

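The 26S proteasome is the enzyme complex that degrades ubiquitin-tagged proteins, and its subunits are encoded by a large family of Psm genes. Members were taken by symbol as every Psma, Psmb, Psmc or Psmd gene followed by a number, with the immunoproteasome subunits Psmb8, Psmb9 and Psmb10 left out. The rule gave 34 of the 12831 genes in the quadriceps table and 35 of the 16962 genes in the epididymal fat table, and 34 of the 12599 genes that both tables share. Psma8, a paralog best known from the testis, was the additional member in fat. Of the 34 members in quadriceps, 31 encode subunits of the finished particle, and the other 3 (Psmd5, Psmd9 and Psmd10) encode chaperones that help to build the ATPase base and leave before the particle is complete.

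The particle has a hollow core made of outer rings of alpha subunits (Psma) and inner rings of beta subunits (Psmb), and the protease sites lie on the beta subunits inside the chamber. A regulatory cap sits on the core. The base of the cap holds a ring of ATPases (Psmc) that unfold proteins together with large scaffold subunits and a ubiquitin receptor, and the lid (the remaining Psmd genes) removes ubiquitin chains before degradation. In skeletal muscle, the ubiquitin-proteasome system is a major route for the breakdown of myofibrillar proteins and is a long-studied part of muscle atrophy.

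The study asked how interleukin-6 made by pancreatic tumor cells bears on the wasting of muscle and fat. Male C57BL/6J mice, 8 weeks old at surgery, received sham surgery (no tumor, called Sham in the sample records) or an injection of pancreatic tumor cells into the pancreas. The cells came from the KPC mouse model of pancreatic cancer, and each tumor group rests on 1 clone of them. The KPC group carried a control clone transfected with a CRISPR plasmid without a target, and the KPC IL6KO group (KPC-IL6ko in the records) carried a clone whose own Il6 gene was edited. The host mice were not edited, so host tissues kept the Il6 gene in all groups. All groups were killed at the same time, when the KPC mice reached the humane endpoint. Quadriceps RNA was sequenced from 3 mice without tumor and from 4 mice of each tumor group, and epididymal fat RNA from 4 mice per group. RNA of the muscles and of the fat pads was isolated and sequenced on separate occasions, and the replicate numbers of the records do not repeat between the tissues (1 to 4 for muscle, 5 to 8 for fat), so libraries were not matched by mouse between tissues. A further no tumor muscle sample that the study set aside was not analysed here.

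Libraries held between 19259763 and 74907810 counts in quadriceps and between 26306377 and 56308545 in fat. Levels are given below as CPM, the counts of a gene scaled to a common library total, after TMM normalization, and differences as log2 fold change (log2FC) ± SE from edgeR's quasi-likelihood test on all genes of a tissue, with the false discovery rate (FDR) taken over all genes. A gene passed the test at FDR of at most 0.05 and is termed called when its FC was also at least 1.5. The 7 muscle marker genes summed to between 116857 and 136261 CPM in the KPC muscles and to between 157563 and 196328 CPM in the no tumor muscles. The neutrophil markers S100a8, S100a9 and Retnlg (3 of a list of 5, with Ly6g and Cxcr2 not in the table) summed to 3.93 to 20.6 CPM in KPC muscles, 0.0512 to 0.294 CPM in no tumor muscles and 1.14 to 2.54 CPM in KPC IL6KO muscles. The macrophage list of 5 genes overlapped between the groups, at 19.8 to 99.1 CPM in KPC and 40.4 to 58.3 CPM in no tumor muscles. None of the listed T and NK cell or pancreatic acinar markers was in the quadriceps table. The part of these markers in the results below was not tested. In bulk tissue, a change in the share of a cell type and a change in RNA per cell cannot be told apart.

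The members that encode subunits of the finished particle rose in the quadriceps of mice with KPC tumors. All 31 of them passed the test and were called higher against no tumor, with a median log2FC of 1.86, or 3.64-fold. The largest rise was that of Psmd4 (6.49-fold), which encodes a ubiquitin receptor of the base, and the smallest was that of Psmb6 (2.11-fold), which encodes a catalytic subunit. Over the 34 members, 32 passed higher and 1 passed lower, beside 33.4% of the 12831 genes that passed higher and 34.2% that passed lower. With the FC threshold, 31 members were called higher and 0 lower, beside 26.7% and 29% of all genes. The median log2FC was 1.83 over the 34 members and −0.03 over all genes. In 32 members all 4 KPC muscles lay above all 3 no tumor muscles, and in 1 they lay below, beside 32.3% and 33% of all genes. The ratio of the lowest KPC muscle to the highest no tumor muscle ran from 1.64 (Psmb6) to 4.51 (Psmd4) over the 31 subunit genes. It was above 2 in 26 of them, and the share of all genes with such a ratio was not computed.

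**Figure D1:**
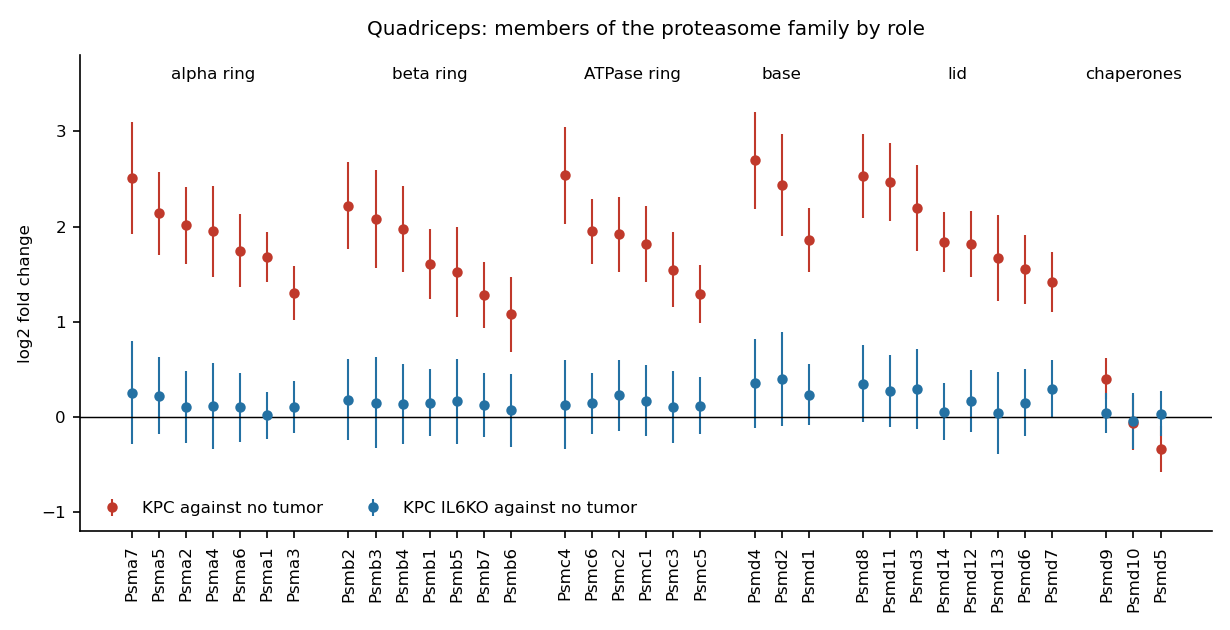
Log2 fold change against no tumor (vertical axis) of the 34 members in quadriceps, ordered by role and by size within each role, for KPC (red) and KPC IL6KO (blue). Points are estimates and lines are 95% confidence intervals. The KPC values of the 31 subunits run from 1.08 to 2.70, those of the 3 chaperones from −0.34 to 0.40, and the KPC IL6KO values lie between −0.04 and 0.40.

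The promoters of members that rose together were read for shared letters. RefSeq promoter windows (GRCm38.p6, the build also called mm10, from 250 bases before to 50 bases after a start site) were at hand for 28 of the 35 members. Psma8, Psmb1, Psmb2, Psmb7, Psmc3, Psmd3 and Psmd7 had no window. The windows of 6 members are shown: Psmd4, the member with the largest rise, Psmb5 and Psmb6, the catalytic subunits that had a window, and Psmd5, Psmd9 and Psmd10, the chaperones, which were not called. The strand shown is that of the gene, at chr3:95042565-95042864 (minus) for Psmd4, chr14:54617946-54618245 (minus) for Psmb5, chr11:70525107-70525406 (plus) for Psmb6, chr2:34870913-34871212 (minus) for Psmd5, chr5:123227940-123228239 (plus) for Psmd9 and chrX:140956662-140956961 (minus) for Psmd10. Capitals mark the core of the antioxidant response element (TGACNNNGC, the type of site bound by NRF1 and NRF2 with small MAF proteins) and the CCAAT box (CCAAT, or ATTGG on the other strand).
Psmd4: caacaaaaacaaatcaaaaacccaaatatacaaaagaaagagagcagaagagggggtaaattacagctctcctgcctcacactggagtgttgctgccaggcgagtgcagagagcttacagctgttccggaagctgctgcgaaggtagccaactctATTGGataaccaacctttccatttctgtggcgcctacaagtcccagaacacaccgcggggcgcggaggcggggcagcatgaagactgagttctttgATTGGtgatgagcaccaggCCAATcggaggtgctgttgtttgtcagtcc
Psmb5: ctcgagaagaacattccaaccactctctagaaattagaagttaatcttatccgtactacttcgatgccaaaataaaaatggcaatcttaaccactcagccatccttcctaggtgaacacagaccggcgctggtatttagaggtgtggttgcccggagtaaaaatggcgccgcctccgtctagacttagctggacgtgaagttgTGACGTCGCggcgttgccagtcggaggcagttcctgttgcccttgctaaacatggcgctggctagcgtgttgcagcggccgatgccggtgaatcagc
Psmb6: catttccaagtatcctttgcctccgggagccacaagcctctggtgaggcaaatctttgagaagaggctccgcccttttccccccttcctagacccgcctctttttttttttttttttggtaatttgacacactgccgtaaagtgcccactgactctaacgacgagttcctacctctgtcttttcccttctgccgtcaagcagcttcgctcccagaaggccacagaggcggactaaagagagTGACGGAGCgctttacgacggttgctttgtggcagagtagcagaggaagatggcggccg
Psmd5: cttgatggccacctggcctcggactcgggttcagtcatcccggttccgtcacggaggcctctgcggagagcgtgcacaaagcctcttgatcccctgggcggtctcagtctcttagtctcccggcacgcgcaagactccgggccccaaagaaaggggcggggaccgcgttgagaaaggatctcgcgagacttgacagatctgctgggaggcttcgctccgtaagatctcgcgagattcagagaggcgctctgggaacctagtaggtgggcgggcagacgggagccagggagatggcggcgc
Psmd9: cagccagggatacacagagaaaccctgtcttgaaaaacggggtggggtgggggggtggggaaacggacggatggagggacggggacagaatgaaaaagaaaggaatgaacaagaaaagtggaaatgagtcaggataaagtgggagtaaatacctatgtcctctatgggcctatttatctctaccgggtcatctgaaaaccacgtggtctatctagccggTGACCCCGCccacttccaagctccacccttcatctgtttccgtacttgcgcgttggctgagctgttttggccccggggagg
Psmd10: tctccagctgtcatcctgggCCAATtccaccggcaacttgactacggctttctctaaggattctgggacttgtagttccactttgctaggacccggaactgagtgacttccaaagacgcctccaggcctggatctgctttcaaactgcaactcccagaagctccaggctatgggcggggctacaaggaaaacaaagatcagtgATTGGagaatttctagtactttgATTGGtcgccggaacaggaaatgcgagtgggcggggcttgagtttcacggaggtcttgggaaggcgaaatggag

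The antioxidant response element core was found on either strand in 5 of the 28 members (17.9%): Psmb5, Psmb6, Psmc6, Psmd12 and Psmd9. Its share was 17.3% of 9757 genes of the quadriceps table with a window and 14% of all 27025 genes with one. The core began 47 bases before the start site in Psmb5 and 9 bases before it in Psmb6, and their log2FC values (1.52 and 1.08) lay below the median of the 31 subunits, as did that of Psmd12 (1.81), while that of Psmc6 (1.95) lay above it. In Psmd9, which was not called, the core overlapped a GC box. Psmd4 held no core but 3 CCAAT boxes. The CCAAT box was in 11 of 28 members (39.3%, beside 42.2% of quadriceps-table genes), and the GC box (GGGCGG) was in 18 (64.3%, beside 68.6%). The STAT palindrome (TTCNNNGAA) was in 1 member, Psmd2 (3.57%, beside 8.32%), and the FoxO motif (GTAAACA) was in 0 (beside 3.17%). All motifs were searched on both strands, and none had a share in the members that stood far above its share in the other genes of the table. These matches describe letters in a short window only.

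Of the beta ring, the layer that holds the protease sites, all 7 measured subunits were called higher, with a median log2FC of 1.61. The chymotrypsin-like subunit Psmb5 (chr14:54614119-54618022) stood at 77.8, 72.9 and 78.6 CPM in the 3 no tumor muscles and at 197, 176, 337 and 168 CPM in the 4 KPC muscles (log2FC 1.52 ± 0.21, FDR 8.2e-05). The caspase-like subunit Psmb6 (chr11:70525367-70527858) had 131, 128 and 137 CPM without tumor and 264, 230, 398 and 225 CPM with KPC tumors (log2FC 1.08 ± 0.18, FDR 0.00026). The trypsin-like subunit Psmb7 (chr2:38588036-38644087) had 172, 170 and 184 CPM without tumor and 476, 357, 537 and 333 CPM with KPC tumors (log2FC 1.28 ± 0.16, FDR 3.6e-05). Every KPC muscle lay above every no tumor muscle for these 3 catalytic genes, KPC 3 was the highest muscle in each, and their log2FC values were the 3 smallest of the ring, followed by Psmb1 (1.61). The largest response of the ring was that of the structural subunit Psmb2 (chr4:126677630-126709714), which went from 49.4, 52.1 and 54.5 CPM to 247, 187, 343 and 190 CPM (log2FC 2.22 ± 0.21, FDR 5.3e-06). Psmb3 (2.08) and Psmb4 (1.98), also structural, came next. For Psmb5, 88.4% of the transcript is present at 98% identity or more in the pseudogene Gm3375, so part of its reads could be lost to or shared with that copy. On the same strand, 12.1% of the Psmb5 exon bases overlap Mir686, and 11.8% of those of Psmb7 overlap Nek6 on the other strand.

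The 7 alpha ring genes, whose products gate the entrance of the core, were all called higher, with a median log2FC of 1.95. Psma7 (chr2:180036374-180042433) had 71.4, 72.5 and 82.2 CPM without tumor and 429, 319, 674 and 299 CPM with KPC tumors, the largest rise of the ring (log2FC 2.51 ± 0.27, FDR 1.2e-05). Psma3 (chr12:70974621-70996347) had the smallest, from 84.0, 75.5 and 83.2 CPM to 222, 185, 226 and 164 CPM (log2FC 1.30 ± 0.13, FDR 7.6e-06). The groups did not overlap for either gene, and KPC 3 was the highest muscle in both. The remaining alpha subunits lay between 1.68 (Psma1) and 2.14 (Psma5). Psma5 shares 76.5% of its transcript, and Psma3 shares 23.4%, with a pseudogene at 98% identity or more (Gm8394 and Gm13835), which makes their counts less certain.

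The 6 ATPases of the base, which pull proteins into the core, were all called higher, with a median log2FC of 1.87. Psmc4 (chr7:28041707-28050101) rose from 86.2, 86.8 and 97.0 CPM to 551, 396, 773 and 370 CPM (log2FC 2.54 ± 0.23, FDR 4.8e-06). Psmc5 (chr11:106256154-106263120) rose from 124, 123 and 134 CPM to 316, 286, 390 and 254 CPM (log2FC 1.29 ± 0.14, FDR 1.3e-05). The ring subunits thus differed among themselves, with confidence intervals of 2.03 to 3.05 for Psmc4 and 0.99 to 1.60 for Psmc5, although the finished ring holds 1 copy of each.

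The other base subunits had a median log2FC of 2.44. Psmd4 (chr3:95032694-95042614) had 125, 132 and 149 CPM in no tumor muscles and 941, 674, 1222 and 674 CPM in KPC muscles (log2FC 2.70 ± 0.23, FDR 3.4e-06), and no KPC muscle came near the no tumor range. Psmd1 (chr1:86064387-86139151), a scaffold subunit, had the smallest rise of the 3, from 144, 147 and 173 CPM to 652, 513, 608 and 479 CPM (log2FC 1.86 ± 0.15, FDR 2.7e-06). Psmd2, the other scaffold subunit, was named after its values were seen. It was the most abundant member by CPM in KPC muscles, at 1713, 1213, 2142 and 1074 CPM, against 266, 266 and 317 CPM without tumor (log2FC 2.44 ± 0.24, FDR 8.0e-06).

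All 8 lid members were called higher, with a median log2FC of 1.83. Psmd8 (chr7:29174188-29180701) went from 170, 181 and 220 CPM to 1177, 900, 1456 and 866 CPM (log2FC 2.53 ± 0.20, FDR 2.2e-06). Psmd14 (chr2:61711694-61800376), the metalloprotease that cuts ubiquitin chains off the substrate, went from 41.4, 37.9 and 43.6 CPM to 161, 136, 174 and 115 CPM (log2FC 1.84 ± 0.14, FDR 2.1e-06). Psmd7 (chr8:107580381-107588464), its inactive partner in the lid, had the smallest rise, from 125, 124 and 153 CPM to 352, 332, 426 and 319 CPM (log2FC 1.42 ± 0.14, FDR 9.0e-06). In these 3 genes the lowest KPC muscle stood above the highest no tumor muscle.

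The assembly chaperones did not follow the subunits, and none of the 3 was called. Psmd9 (chr5:123169413-123250131) passed the test with a small rise, from 21.9, 23.5 and 24.4 CPM to 31.9, 28.6, 33.2 and 29.1 CPM (log2FC 0.40 ± 0.10, FDR 0.0034). Psmd5 (chr2:34849734-34874968) passed in the other direction, from 14.6, 15.3 and 15.9 CPM to 11.3, 13.1, 11.2 and 12.7 CPM (log2FC −0.34 ± 0.11, FDR 0.016). Psmd5 no longer passed when no tumor 3 was left out (log2FC −0.31, FDR 0.056) and when only the 2 groups were fitted (log2FC −0.31, FDR 0.070). Psmd10 (chrX:140948429-140956728), also known as gankyrin, stood at 7.53, 7.11 and 7.79 CPM without tumor and at 6.99, 7.50, 8.12 and 6.06 CPM with KPC tumors, so the groups overlapped (log2FC −0.06, 95% confidence interval −0.35 to 0.23). For Psmd9, 25.5% of the exon bases overlap Gm26745 on the other strand, and the rise was no longer past the threshold when library totals were used without TMM (log2FC 0.20, FDR 0.077).

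**Figure D2:**
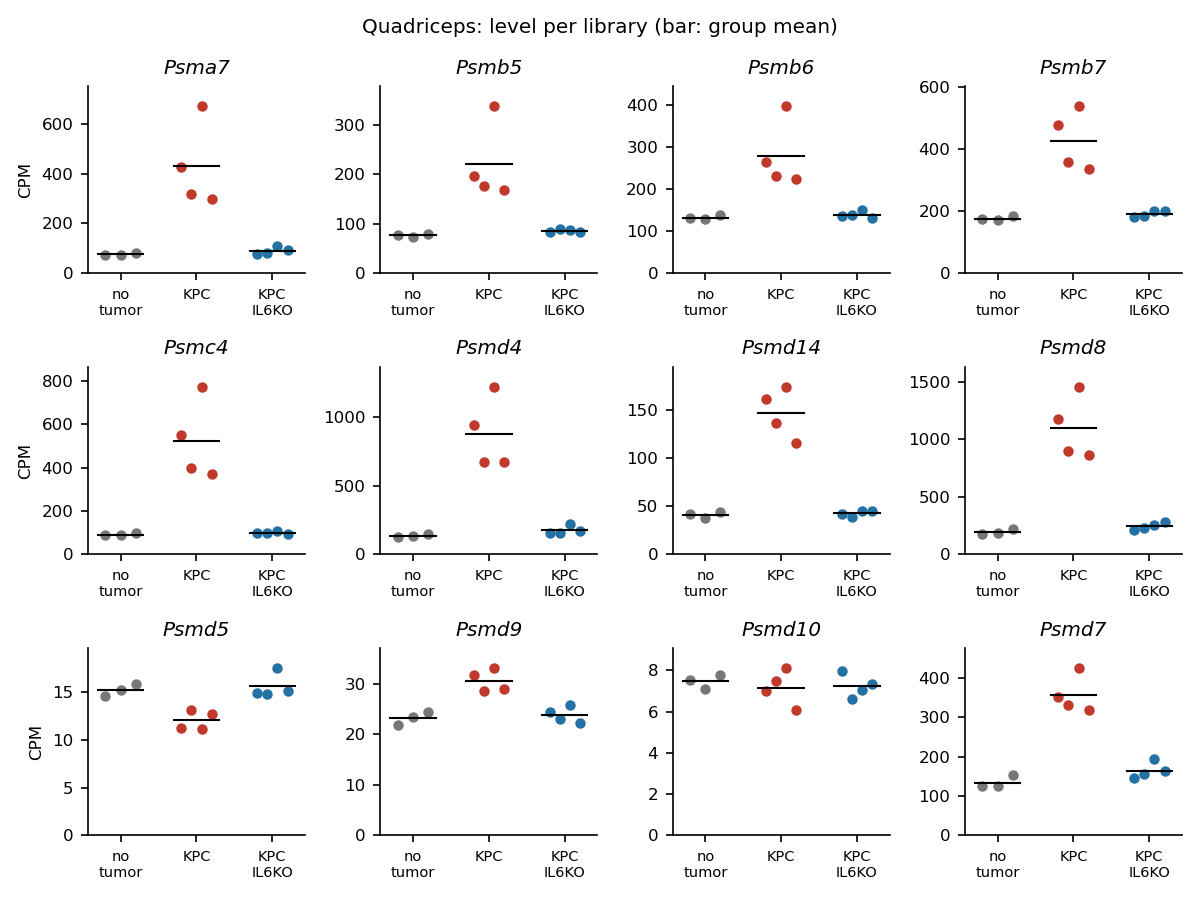
Level in CPM (linear axes from 0) of 12 members in each quadriceps library, by group, with a bar at the group mean. The 4 KPC muscles lie above both other groups for the 9 subunits, while Psmd5 lies below them, Psmd9 slightly above them, and the Psmd10 values of the 3 groups overlap.

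Summed over the 34 members, the share of all counts in a quadriceps library was 0.353% to 0.376% without tumor, 1.00% to 1.62% with KPC tumors and 0.366% to 0.453% with KPC IL6KO tumors. The group means were 0.364% ± 0.0112 (SD, n = 3), 1.22% ± 0.278 (SD, n = 4) and 0.397% ± 0.0405 (SD, n = 4), and the KPC mean was 3.36 times the no tumor mean. The Wilson 95% interval of each library's share was at most 0.00303 percentage points to either side, which covers counting error only. Among the KPC muscles, KPC 3 had the highest level in 29 of the 31 subunit genes and KPC 4 the lowest in 21. No tumor 3, the library with the fewest counts, was the highest of its group in 29 subunit genes, and KPC IL6KO 3 was the highest of its group in 26. Such ranks were not counted over all genes, so they cannot be called particular to the subunits. Without KPC 3, the median log2FC of the members against no tumor was 1.70, and all 31 subunits were still called.

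**Figure D3:**
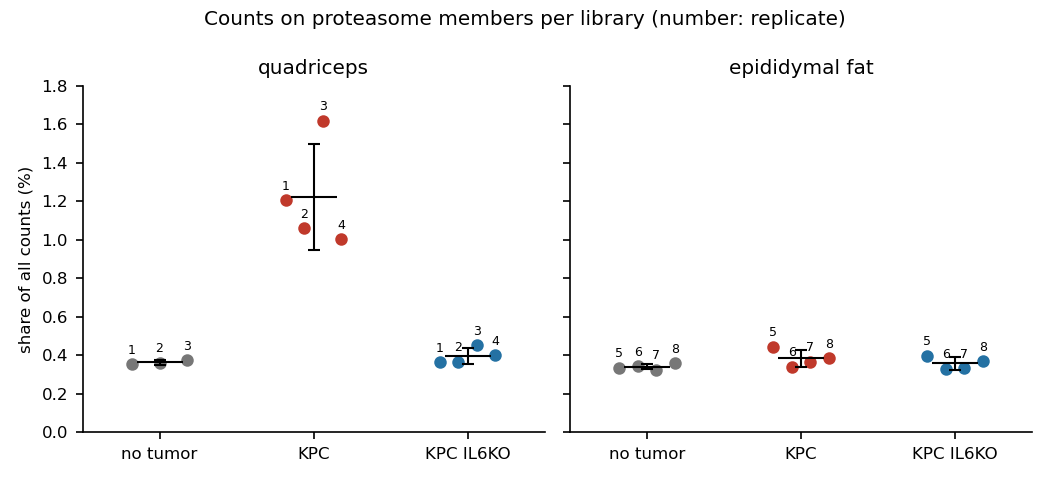
Share of all counts on the proteasome members (percent, axis from 0) in each library of quadriceps (left) and epididymal fat (right), with the replicate number beside each point and the group mean with SD in black. The 4 KPC muscles lie between 1.00% and 1.62%, and all other libraries of both tissues lie between 0.325% and 0.453%.

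Compared per kilobase of the longest coding transcript (RPKM), subunit levels were unequal in resting muscle. In no tumor quadriceps, Psmb6 was the highest subunit at 165 ± 5.83 RPKM (SD, n = 3) and Psma2 the lowest at 23.1 ± 1.11, a ratio of 7.15. In KPC quadriceps, Psmd8 was the highest at 555 ± 139 RPKM (SD, n = 4) and Psma3 the lowest at 70.0 ± 10.6, a ratio of 7.92. Psmb6 thus moved from rank 1 to rank 9 in RPKM, and Psmd4 moved from rank 12 to rank 3. The SD of log2 RPKM over the 31 subunits was 0.745 without tumor and 0.781 with KPC tumors, so the spread between subunits was of a similar size in both groups. The 3 chaperones held the lowest 3 ranks in every quadriceps group, at 8.96 RPKM or less without tumor. In fat the ratio of the highest to the lowest subunit was 6.69 without tumor and 6.44 with KPC tumors, and it was 11.9 and 11.4 when the union of all exons was taken as length. In no tumor quadriceps, the union of all exons gave Psmc5 as the highest subunit (91.0 RPKM) and Psmd11 as the lowest (12.9). In KPC quadriceps it gave Psmd2 (380) and Psma3 (51.2). The ranks above were taken with the longest coding transcript only. RPKM here depends on the transcript chosen, and for a capture kit, which the sample records name, also on the probes.

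With KPC IL6KO tumors, no member of the proteasome passed the test against no tumor in quadriceps. The count was 0 of 34 at FDR of at most 0.05, beside 0% of the 12831 genes, and 0 members had an unadjusted p under 0.05, while 887 of all genes did. DESeq2 and edgeR's likelihood ratio test gave 0 members as well, and limma-voom gave 1, Psmd8 (log2FC 0.39, FDR 0.044). Each of these tests passed other genes of the quadriceps table, and the counts over all genes are given in the section on processing. The estimates of the members in the main test were small and nearly all on the high side. In 33 of 34 members log2FC was above 0, beside 50.7% of all genes. The median was 0.15, and the values ran from −0.04 (Psmd10) to 0.40 (Psmd2), beside a median of 0.00 over all genes. KPC IL6KO 3 was the highest of its group in 26 of the 31 subunit genes, so these signs are not independent of each other. Without TMM, the estimates of Psmd5, Psmd9, Psmb6 and Psmd14 fell below 0. The upper 95% bound stayed under 1 for all 31 subunits and reached at most 0.89 (Psmd2). For each of the 31 subunits this upper bound was below the lower bound of the same gene's KPC response. Both intervals rest on the same no tumor libraries, and the share of all genes with such a gap was not computed. Psmd4 had 153, 151, 218 and 168 CPM in the KPC IL6KO muscles, just above its no tumor range of 125 to 149 CPM. Psmd4, Psmb5 and Psmd3 were the 3 members in which all KPC IL6KO muscles lay above all no tumor muscles, beside 7.54% of all genes, and 0 members lay below, beside 8.01%. Psmd7 came nearest to the threshold among the members (log2FC 0.30, FDR 0.75), with 145, 156, 194 and 162 CPM against 125, 124 and 153 CPM. Without KPC IL6KO 3, the median over the members was 0.08.

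The KPC muscles were also compared directly with the KPC IL6KO muscles. All 31 members for subunits of the particle were called higher in KPC, with a median log2FC of 1.69 and a range from 1.01 (Psmb6) to 2.41 (Psmc4). Over the 34 members, 32 passed higher and 1 lower, beside 34.4% and 33.6% of all genes, and 31 were called higher and 0 lower, beside 26.4% and 27.3%. Psmc4 had 97.0, 95.6, 107 and 94.5 CPM in the KPC IL6KO muscles against 370 to 773 CPM in the KPC muscles (FDR 2.9e-06). The catalytic Psmb5, Psmb6 and Psmb7 differed by 1.36, 1.01 and 1.16 (FDR 8.1e-05, 0.00021 and 3.4e-05). The ubiquitin receptor Psmd4 differed by 2.35 and the lid protease Psmd14 by 1.78. All 4 KPC muscles lay above all 4 KPC IL6KO muscles in 32 members and below in 1, beside 31.2% and 30.8% of all genes. The lowest KPC muscle was more than 2 times the highest KPC IL6KO muscle in 22 of the 31 subunit genes. The share of all genes with such a ratio was not computed. Psmd5 was again lower (log2FC −0.37 ± 0.10, FDR 0.0061) and Psmd9 slightly higher (0.36 ± 0.09, FDR 0.0037). The comparison shares the KPC libraries with the comparison against no tumor, and the 2 are therefore not independent.

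Other genes of the pathway, of which 37 of 42 symbols searched were in the quadriceps table, did not all move with the subunits. Against no tumor, 25 of the 37 passed higher in KPC muscles and 8 passed lower, beside 33.4% and 34.2% of all genes. With the FC threshold, 22 were called higher and 6 lower, beside 26.7% and 29% of all genes. The immunoproteasome subunits, which replace the catalytic beta subunits in immune cells and after interferon, went the other way from the constitutive ones. All 3 were called lower, beside 29% of all genes. Psmb8 had 1.37 to 6.11 CPM in KPC and 5.43 to 11.2 CPM in no tumor muscles (log2FC −1.58 ± 0.46, FDR 0.0090), with overlap between the groups. Psmb9 had 0.358 to 2.07 CPM against 2.46 to 5.47 CPM (log2FC −2.27 ± 0.54, FDR 0.0029), and Psmb10 had 2.96 to 5.61 CPM against 12.7 to 14.6 CPM (log2FC −1.72 ± 0.21, FDR 2.9e-05). Of the activators that cap the core in place of the regulatory particle, the interferon-inducible Psme1 (log2FC −1.42) and Psme2 (−0.74) were called lower, while the nuclear activators Psme3 (1.03) and Psme4 (0.99) were called higher. Psmf1, an inhibitor of the core, was called higher as well (1.20).

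Subunits and partners that carry other symbols rose with the particle in part. Adrm1, the ubiquitin receptor RPN13, had 277 to 527 CPM in KPC muscles and 75.2 to 87.8 CPM without tumor (log2FC 2.21 ± 0.21, FDR 5.8e-06). The proteasome-bound deubiquitinase Usp14 was also called higher (2.09 ± 0.15, FDR 1.4e-06), whereas the small lid subunit Shfm1 (SEM1) did not pass (0.01). Ube3c, a ubiquitin ligase bound to the proteasome, passed lower (−0.34, FDR 0.0055). Of 6 measured chaperones that are dedicated to assembly, 3 were called higher, beside 26.7% of all genes. These were the proteasome adaptor AI314180 (Ecm29, 1.14), the core maturation factor Pomp (0.71) and Psmg4 (0.66). Psmg2 passed lower (−0.49). Ubb, which encodes polyubiquitin, stood at 163 to 283 CPM in KPC muscles and 29.6 to 37.8 CPM in no tumor muscles (log2FC 2.75 ± 0.23, FDR 2.9e-06), and Rps27a, which encodes ubiquitin fused to a ribosomal protein, was called higher with a smaller change (0.72, FDR 0.0019). Of 10 genes for ubiquitin activation and the delivery of substrates, 9 passed higher, beside 33.4% of all genes. The largest value was that of the VCP cofactor Nploc4 (3.15), and the alternative activating enzyme Uba6 was called lower (−1.19).

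Among the regulators, the transcription factor gene Nfe2l1 (NRF1), known for driving proteasome genes when the proteasome is inhibited, did not pass at the level of its mRNA (log2FC 0.27, FDR 0.094). It had 807 to 1168 CPM in KPC and 750 to 776 CPM in no tumor muscles. Ddi2, the protease that activates NRF1, was called higher (2.22 ± 0.20, FDR 4.8e-06), and so were Nfe2l2 (1.32) and the small MAF genes Maff, Mafk and Mafg (3.76, 3.2 and 1.68). Against KPC IL6KO, 24 of the 37 genes passed higher and 8 lower, beside 34.4% and 33.6% of all genes. The immunoproteasome genes were again called lower (Psmb8 −1.52, Psmb9 −2.21 and Psmb10 −1.56), beside 27.3% of all genes. In KPC IL6KO against no tumor, 0 of the 37 passed, beside 0% of all genes. The gene nearest to the threshold among the 37 was the ubiquitin shuttle factor Ubqln4 (log2FC 0.29, FDR 0.48 in edgeR's quasi-likelihood test). In fat, 0 of the 37 passed in any comparison, beside 0% of all genes each time.

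**Figure D4:**
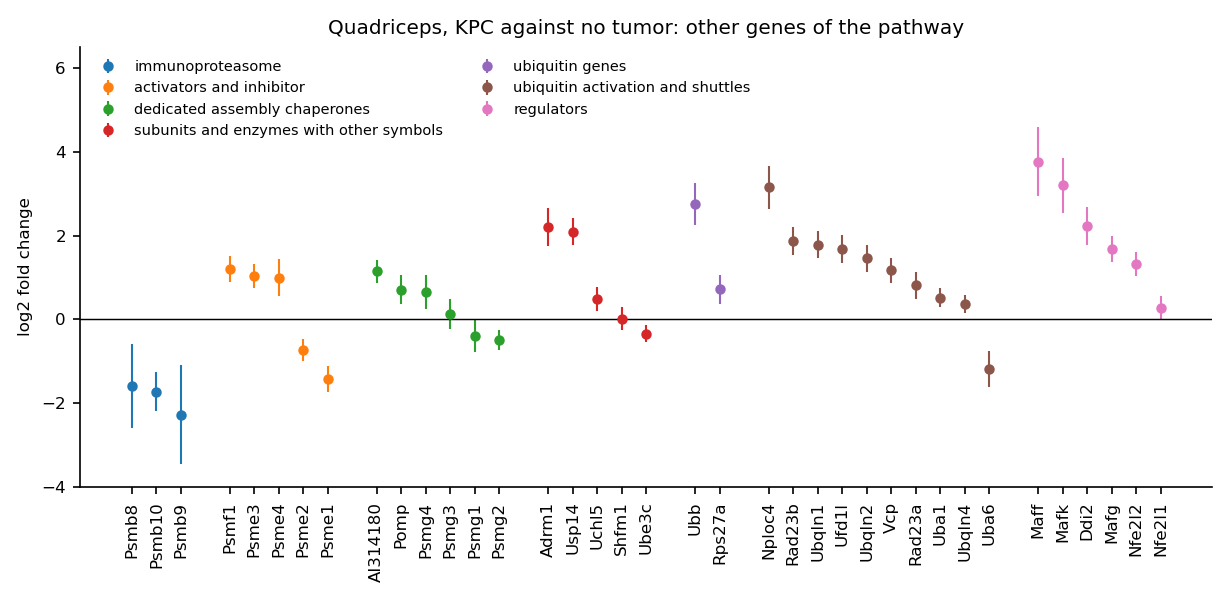
Log2 fold change of KPC against no tumor in quadriceps (vertical axis) for 37 other genes of the pathway, grouped by list and ordered by size within each list; lines are 95% confidence intervals. The immunoproteasome genes lie between −2.27 and −1.58, while Ubb lies at 2.75 and Maff at 3.76.

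In epididymal fat, proteasome genes did not pass the test in any comparison. The count was 0 of 35 members for KPC against no tumor, for KPC IL6KO against no tumor and for KPC against KPC IL6KO, beside 0% of the 16962 genes each time. The number of members with an unadjusted p under 0.05 was 0 in all 3 comparisons, while 2061, 1584 and 1062 of all genes had one. In fat, DESeq2, edgeR's likelihood ratio test and limma-voom also gave 0 members. DESeq2 and the likelihood ratio test did pass other genes in KPC against no tumor fat, and those counts are given in the section on processing. Median log2FC values over the members were 0.07, 0.05 and 0.07. Fat libraries varied more than muscle libraries, with a biological coefficient of variation of 63.5% in fat and 22.7% in quadriceps over all genes. The 20 epididymis markers (19 in the table) summed to between 4407 and 105725 CPM, and both of these extremes lay in groups other than KPC. The 6 adipocyte genes ranged from 993 to 18078 CPM. Summed macrophage markers were higher in all KPC fat pads (408 to 868 CPM) than in no tumor pads (103 to 383 CPM). In KPC IL6KO pads they ran from 188 to 1016 CPM and overlapped both other groups. The 7 muscle markers were at 2.16 to 5.41 CPM in KPC, 8.68 to 276 CPM in no tumor and 93.9 to 2485 CPM in KPC IL6KO pads. The part of this composition in the fat results was not tested. The proteasome members held summed shares of 0.325% to 0.446% of counts over the 12 fat libraries. A sum over 35 genes cannot be compared with the spread of single genes, and no other gene set of that size was summed.

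The intervals in fat were narrow enough to bound a change of the size seen in muscle. For the 31 subunits that both tissues share, log2FC of KPC against no tumor ran from −0.15 (Psmd8) to 0.39 (Psma5), and the highest upper 95% bound was 0.83. For every one of the 31 subunits, the upper bound in fat was below the lower bound in quadriceps. How many of all genes had such a gap was not computed. Psma5 came nearest to the threshold in KPC against no tumor (log2FC 0.39 ± 0.20, FDR 0.48), with 71.4, 77.3, 62.1 and 65.2 CPM without tumor and 107, 78.2, 70.6 and 105 CPM with KPC tumors. Psma4 followed, with 119, 106, 85 and 81.6 CPM against 153, 113, 102 and 124 CPM (log2FC 0.33, FDR 0.53). For both genes the groups overlapped. In KPC IL6KO against no tumor, the nearest were Psma8 (log2FC −2.12 ± 1.45, FDR 0.66) and Psmc2 (−0.19, FDR 0.67). Psma8 was at 0.614, 2.94, 4.93 and 21.9 CPM without tumor, at 0.496, 0.286, 8.39 and 0.390 CPM with KPC tumors and at 0.196, 0.171, 4.46 and 2.17 CPM with KPC IL6KO tumors, a wide scatter within each group. Psmc2 was at 149, 116, 129 and 135 CPM without tumor and at 104, 141, 108 and 110 CPM with KPC IL6KO tumors. In KPC against KPC IL6KO, the nearest were Psmb3 (log2FC 0.22, FDR 0.94) and Psmc1 (0.22, FDR 0.97). Psmb3 had 104, 74.5, 69.1 and 82.7 CPM with KPC tumors and 73.4, 79.8, 61.3 and 69.0 CPM with KPC IL6KO tumors, and Psmc1 had 203, 139, 115 and 151 CPM and 143, 132, 121 and 126 CPM. The groups overlapped for all 35 members in each comparison. Over all genes, 6.52% lay wholly above and 4.39% wholly below in KPC against no tumor, 1.52% and 0.489% in KPC IL6KO against no tumor, and 0.637% and 3.69% in KPC against KPC IL6KO.

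The difference between the tissues was tested directly as the KPC response in quadriceps minus the KPC response in fat, over the 12599 genes of both tables and all 23 libraries. All 31 members for subunits of the particle had the larger response in quadriceps, and all 31 passed and were called, beside 19.2% of genes that passed in this direction and 18.1% that were called. In the other direction 0 of the 34 members passed, beside 19.3% of genes. The median difference in log2FC over the 34 members was 1.55. The largest was that of Psmd8 (2.57, FDR 3.2e-06), whose fat levels were 124, 155, 108 and 127 CPM without tumor and 154, 98.4, 111 and 99.7 CPM with KPC tumors. Psmd4 (2.41, FDR 4.9e-06), Psmc4 (2.36, FDR 8.1e-06) and Psma7 (2.23, FDR 1.8e-05) were close behind, and Psmb6 had the smallest difference among the subunits (0.91, FDR 0.0023). Among the chaperones, Psmd5 (−0.31, FDR 0.16), Psmd9 (0.24, FDR 0.30) and Psmd10 (−0.17, FDR 0.68) did not pass. Each response was taken within its own tissue, and tissue cannot be told apart from the separate RNA isolation and sequencing that the sample records give for fat. The same holds for the library kit and RNA input, which differ between muscle and fat in the paper's methods.

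**Figure D5:**
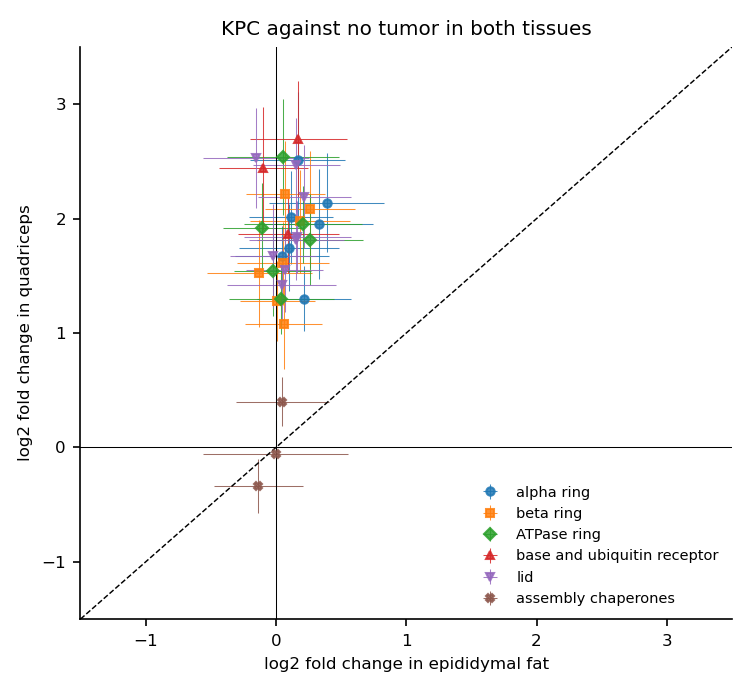
Log2 fold change of KPC against no tumor in epididymal fat (horizontal axis) and in quadriceps (vertical axis) for the 34 members of both tables, marked by role, with 95% confidence intervals; the dashed line marks equal responses. The 31 subunits lie above 1 on the vertical axis and between −0.15 and 0.39 on the horizontal axis, and the 3 chaperones lie near the dashed line.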

How the data were processed

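RNA of 11 quadriceps and 12 epididymal fat libraries was measured by paired-end sequencing. Per the paper's methods and the submitters' processing notes, reads were checked with FastQC, mapped to mm10 with STAR and assigned to genes with featureCounts 1.5.1 (the notes also list edgeR 3.12.1), and the authors deposited 1 table of raw counts per gene and tissue. The tables were already limited to expressed genes, so a further filter on low counts removed none. The library kit and the RNA quality minimum are described differently in the paper and in the sample records. In the paper's methods, muscle and fat libraries were made with different kits. The strand setting of the counting is not given in the sources used here. Exon overlaps with other genes are given for Psmb5, Psmb7 and Psmd9. Psma4, Psma5, Psmc3, Psmd1, Psmd3 and Psmd13 also overlap another gene, at up to 10.1% of their exon bases, and their counts are uncertain to that extent.

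Groups came from the sample titles. Counts as deposited were analysed with edgeR 4.0.16 in R 4.3.3 (filterByExpr, TMM, quasi-likelihood test with all 3 groups of a tissue in 1 fit, Benjamini-Hochberg FDR over all genes). A model over all 23 libraries and 6 groups tested the difference between tissues. CPM values are TMM-scaled. Gene positions and lengths were taken from GENCODE vM21, copies were found with BLAST+ 2.17.0 and promoters came from RefSeq. The fits were tested on simulated data. Alternatives were DESeq2 1.42.0, limma-voom (limma 3.58.1), other edgeR tests, scalings, filters, groupings, a replicate block and leaving out each library.

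Named genes were the highest and lowest member of each role group in KPC against no tumor quadriceps, the catalytic subunits, Psmd4, Psmd14, members that moved against their role group, and the 2 members with the smallest p in each fat comparison, with the highest and lowest called gene of each companion list and Nfe2l1. Other members and genes named were chosen after their values were seen. Some genes of the companion lists are not reported here. The members and lists were chosen with earlier results of these data known. Records give 1 sample per mouse, and p-values measure the spread between these mice. Counting error is small at these depths, and a count of 3 in a library, taken as the floor, is 0.0462 to 0.154 CPM.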

Additional observations from a re-analysis of the deposited data

Results flagged for a closer look

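The KPC response differed between the tissues for 14 of the 17 members named for quadriceps. The test was that of the difference itself over all genes of both tables. The values, as log2FC in quadriceps minus log2FC in epididymal fat, were 2.57 for Psmd8, 2.42 for Psmd2, 2.41 for Psmd4, 2.36 for Psmc4, 2.23 for Psma7, 2.03 for Psmb2, 1.65 for Psmd1, 1.56 for Psmd14, 1.53 for Psmb5, 1.26 for Psmd7, 1.16 for Psmb7, 1.14 for Psmc5, 0.98 for Psma3 and 0.91 for Psmb6. The largest FDR among them was 0.0023 (Psmb6), in edgeR's quasi-likelihood test. Over all genes, 19.2% passed with the larger response in quadriceps and 19.3% passed in the other direction. The named members were chosen in part by their KPC response in quadriceps, which is part of this difference.

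A library stood far from the other 3 of its group, by the ratio of its gap to the whole range of the group (Dixon's test, 95% critical value), in 4 of 57 sets of values examined, where chance alone gives about 1 in 20. KPC IL6KO 3 stood apart for Psmb2 in quadriceps (ratio 0.876), at 69.9 CPM against 54.4 to 56.3 CPM, and for Psmd5 (ratio 0.857), at 17.6 CPM against 14.8 to 15.2 CPM. In fat, KPC 7 stood apart for Psma8 (ratio 0.974), at 8.39 CPM against 0.286 to 0.496 CPM, and KPC IL6KO 6 stood apart for Psmc2 (ratio 0.833), at 141 CPM against 104 to 110 CPM.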

How the results depend on the processing

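Under every alternative run, including the leaving out of each library, 31 members were called higher in KPC quadriceps against both other groups and 31 in the difference between tissues, and 0 members passed in fat. Members that passed lower in KPC against no tumor, 1 (Psmd5), were 0 when only the groups compared were fitted, and 0 to 1 when each library was left out (0 without no tumor 3). Members that passed in KPC IL6KO against no tumor, 0, were 1 with limma-voom. Library totals without TMM moved the median of all genes by −0.20 in KPC against no tumor, and the members' median was then 1.62.

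Some log2FC values near 0 changed sign. In KPC against no tumor, Shfm1 was −0.036 with limma-voom, −0.015 with at least 10 counts in every library, −0.19 without TMM and −0.11 to 0.062 with each library left out, and Psmd10 was −0.12 to 0.013 with each library left out. In KPC against KPC IL6KO, Psmd10 was 0.0096 with DESeq2, 0.0086 with RLE scaling and −0.080 to 0.057 with each library left out. In KPC IL6KO against no tumor without TMM, Psmd5, Psmd9, Psmb6 and Psmd14 were −0.041, −0.035, −0.0036 and −0.019, and with each library left out Psmd5 was −0.027 to 0.065 and Psmd9 −0.0078 to 0.075.

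With the union of exons as length, chosen after seeing the data, the ratio of highest to lowest RPKM in fat was 11.9, 11.4 and 10.6 for no tumor, KPC and KPC IL6KO, against 6.69, 6.44 and 6.48. Over all genes, 0 passed in KPC IL6KO against no tumor quadriceps, but 107 with DESeq2, 95 with edgeR's likelihood ratio test and 1008 with limma-voom. In fat 0 passed in KPC against no tumor, but 626 with DESeq2, 413 with the likelihood ratio test, 428 with an epididymis covariate, 174 with only the groups compared and 16 with the newer quasi-likelihood fit. The other fat comparisons gave at most 286 and 136, both with DESeq2. The cause was not tested for any of these.

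Correlations of deviations between mice with equal replicate numbers ran from −0.54 to 0.65. Mice with unlike numbers were not compared, so these values cannot decide whether equal numbers pair the mice. With the replicate block, 31 members were again called higher in KPC against no tumor, and no call of a member or named gene changed. With 3 or 4 mice per group, muscle changes of the size seen in KPC IL6KO did not pass the test.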
